A study of Narcissus tazetta subsp. chinensis with 8 samples.

Results

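Petals of the scented Chinese narcissus Narcissus tazetta var. chinensis cv Jinzhanyintai were profiled by RNA sequencing at 2 stages, early flowering (day 1) and full bloom (day 7). The comparison uses the 4 petal libraries, 2 biological repeats on each day, of the 8 libraries of the series. The other 4 are corolla libraries of the same days and serve here only as a reference for petal. All groups share 1 cultivar, grown in a plantation under natural conditions, and the labels give no transgene or treatment. Neither the number of flowers or plants behind a repeat nor the way petal was separated from corolla is given in the labels. The p-values therefore measure the spread between these repeats, which may in part be technical. In bulk tissue, fewer cells of a type and less RNA per cell cannot be told apart.

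A narcissus petal opens largely by the expansion of cells that have already been formed. Opening cells loosen and extend their walls, take up water through aquaporins and cover the growing surface with cuticular wax. Open petals of scented flowers release volatile benzenoids and terpenoids made from phenylalanine and from plastid precursors, and many of these volatiles are methylated. Petals that have passed full bloom begin to move amino acids, sugars and metals back to the plant, under hormones that include abscisic acid and ethylene.

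Levels are in FPKM, the fragments counted for a gene after scaling by transcript length and by library size. The petal table lists 67182 assembled genes. A gene was tested where it reached 1 FPKM in at least 2 of the 4 petal libraries, which left 23433 genes. Each was compared with limma on log2(FPKM + 1), two-sided, and "rose" or "fell" below means an adjusted p-value under 0.05. Fold changes are day 7 against day 1 on that log2(FPKM + 1) scale, with the standard error of the fit (SE), and understate the change of weakly expressed genes. The identifiers are those of the de novo assembly. Genes whose identifiers share the number before ".graph" may be parts of 1 transcript or close copies, and their reads may have been split between them.

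From 23508 to 29601 genes reached 1 FPKM in a library. Relative to day 1 repeat 1, sequencing depth was 0.811 in day 1 repeat 2, 0.981 in day 7 repeat 1 and 0.654 in day 7 repeat 2. Across tested genes the repeats correlated at r = 0.976 on day 1 and 0.957 on day 7, and libraries of different days at 0.891 to 0.929, where genes are not independent. Among floral organ identity genes, c106110.graph_c1 was described as MADS-box transcription factor 2, a B-class gene. It had 268 and 241 FPKM on day 1 against 41.6 and 53.96 FPKM on day 7. In corolla it was at 479 and 446 and then 165 and 173 FPKM, above petal on both days, so it does not mark petal against corolla. A further gene of that class, MADS-box transcription factor 16 (c95429.graph_c0), chosen after its values were seen, was at 20.5 and 12.6 and at 3.06 and 5.37 FPKM in petal and at 30.4 and 24.7 and at 7.47 and 4.36 FPKM in corolla. The 5 described pollen and anther markers were all detected, with a summed level of 106 and 84.7 FPKM on day 1 and 53.7 and 47.6 FPKM on day 7. The 14 photosynthesis and chlorophyll genes described for petal summed to 999 and 920 FPKM on day 1 and to 286 and 289 FPKM on day 7. Both sums were lower on day 7 in both repeats, and their part in the results below was not tested. The members of both sums were described through the authors' petal calls and so had been selected for a day change. Of the 5 pollen and anther markers, 2 rose and 3 fell. The sums therefore do not measure how much pollen or green tissue a library held.

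More genes fell than rose between early flowering and full bloom. Of the 23433 tested genes, 966 rose (4.12%) and 1418 fell (6.05%), together 10.2%. The median log2 fold change of all tested genes was -0.05. The counts depended on single libraries. In the fit without day 1 repeat 1, 114 rose and 137 fell, and without day 1 repeat 2, 220 rose and 241 fell. Without day 7 repeat 2, 1372 rose and 3290 fell, while the fit without day 7 repeat 1 gave 1009 and 1470. With 1 library left on a day, the fit assumes that it varies like the libraries of the other day. Of the 143 genes named here that passed, each fit with 1 library left out could test 135. The other 8 no longer reached 1 FPKM in 2 libraries. They were not the same genes without a day 1 library as without a day 7 library, so the 135 differed too. Among those 135, 65 lost their call without day 1 repeat 1, 34 without day 1 repeat 2, 2 without day 7 repeat 1 and 1 without day 7 repeat 2, and 0 changed sign. Among the 244 risers with a log2 fold change over 2, 186 were higher in day 7 repeat 1 than in repeat 2. Among the 231 fallers under -2, 195 were higher in day 1 repeat 1 than in repeat 2.

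**Figure D1:**
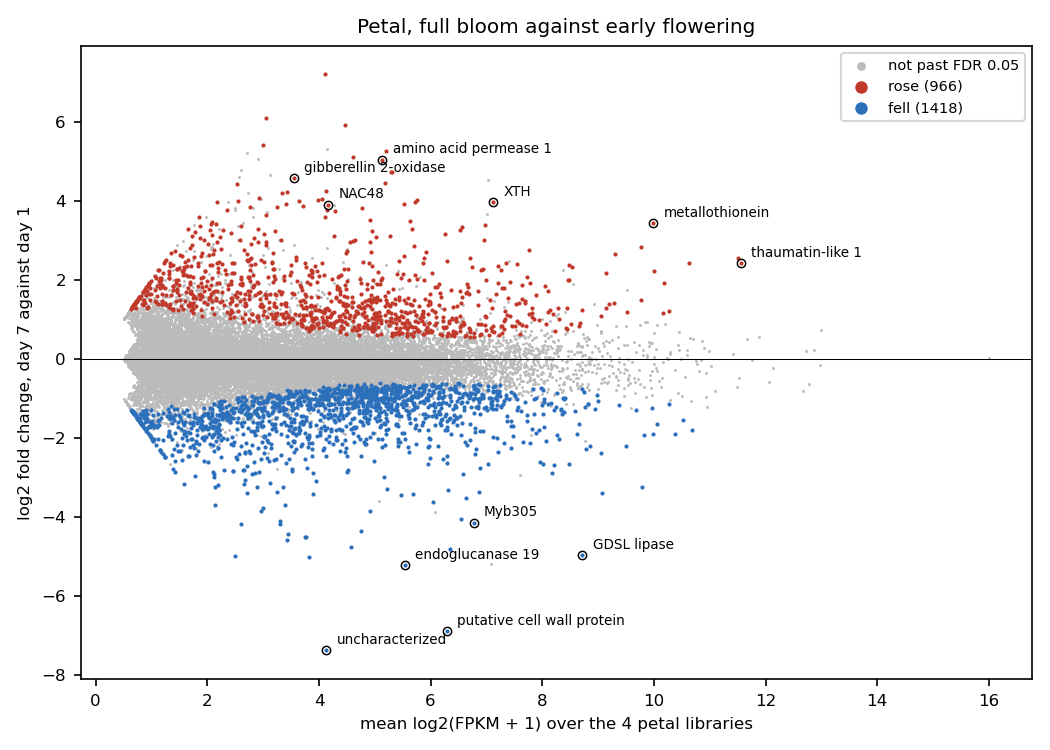
Each point is 1 of the 23433 tested genes, with the mean log2(FPKM + 1) over the 4 petal libraries on the horizontal axis and the log2 fold change of day 7 against day 1 on the vertical axis. The 966 genes that rose and the 1418 that fell are coloured, and the named genes lie at the edges, from amino acid permease 1 at 5.05 to an uncharacterized gene at -7.37.

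Names, and Gene Ontology (GO) terms, come from the authors' deposited annotation. It describes 880 genes through the authors' petal calls and another 1049 through their corolla calls alone. The authors' calls, 1053 in petal, rest on the same 4 libraries, so members described through petal had been selected for a change, and their counts are a description of direction only. Of the 868 tested among them, 275 rose (31.7%) and 523 fell (60.3%), the shares to read a list's members so described against. Members described through corolla alone were called in corolla, and described genes that were also called in petal are not among them. They are therefore not an unselected set, and hold fewer clear petal changes by construction. Of 926 tested, 10.4% rose and 22.2% fell, which is the level to read the share of a list's members so described against. Terms were counted for genes described through petal, and so selected for a change. Of those with any term, 179 rose and 346 fell. The term apoplast, the space outside the plasma membrane, was held by 0 risers and 18 fallers, and plant-type cell wall by 1 and 14. Protein folding had 0 risers and 13 fallers, methylation 0 and 16, and fatty acid biosynthetic process 1 and 10. Plasma membrane had 13 and 48. The split was near even, or favoured risers, for carbohydrate metabolic process (10 and 9), response to abscisic acid (6 and 5), transmembrane transport (8 and 6) and ATP catabolic process (9 and 6).

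Genes that build and loosen the cell wall and were described through petal, so selected for a change, were mostly lower at full bloom. Of these 50 tested wall genes, 35 fell (70%) and 12 rose, with a median log2 fold change of -1.49. Among all genes described through petal, 60.3% fell. Of the 29 described through corolla alone, 11 fell (37.9%) and 5 rose (17.2%), with a median of -0.99. Both shares were above the 22.2% and 10.4% of all genes so described. With day 1 repeat 1 left out, 9 of all these genes fell and 5 rose, and without day 1 repeat 2, 14 fell and 8 rose.

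Endoglucanase 19 (c105014.graph_c0), an enzyme that cuts beta-1,4-glucan chains, was measured at 314 and 253 FPKM on day 1 and 5.86 and 7.38 FPKM on day 7 (log2 fold change -5.22 ± 0.18 SE, limma adjusted p = 0.00383). Each day 7 library was far below each day 1 library. Another endoglucanase (c100311.graph_c0), number 17, stood at 22.4 and 13.4 FPKM and then at 1.25 and 1.19 FPKM. Expansin-A1 (c93401.graph_c0), a protein that loosens walls in growing cells, went from 23.5 and 17.3 to 0.49 and 1.76 FPKM (-3.38 ± 0.36 SE, limma adjusted p = 0.0111). Beta-galactosidase 12 (c77198.graph_c0), which releases galactose from wall polymers, had 21.6 and 14.8 FPKM on day 1 and 0.32 and 2.41 FPKM on day 7. Both genes were lower in both day 7 libraries, and for both the lowest value was in day 7 repeat 1. The leucine-rich repeat extensin-like protein 2 gene (c108053.graph_c0), which encodes a wall structural protein, had 13.8 and 9.18 FPKM and then 0.52 and 0.58 FPKM.

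Large falls also occurred outside these lists, such as that of c101821.graph_c0, described only as a putative cell wall protein. Its values were 1110.1 and 647 FPKM on day 1 and 6.08 and 6.31 FPKM on day 7 (-6.88 ± 0.27 SE, limma adjusted p = 0.00383). The day 1 repeats differed from each other, and both lay far above day 7. The largest fall was that of an uncharacterized protein (c54411.graph_c0), at 286 and 177 FPKM and then 0.29 and 0.44 FPKM (-7.37 ± 0.26 SE, limma adjusted p = 0.00383). Uncharacterized c98098.graph_c1 (140.2 and 104 to 4.80 and 5.12 FPKM) and the pair c71959.graph_c0 (105 and 59.5 to 2.17 and 0.93 FPKM) and c71959.graph_c1 (80.7 and 50.3 to 1.28 and 2.56 FPKM) also ranked among the 15 largest falls. The pair shares an assembly number. A 36.4 kDa proline-rich protein (c77264.graph_c0) fell from 52.2 and 32.2 to 0.61 and 2.37 FPKM.

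Other wall enzymes moved the opposite way. A xyloglucan endotransglucosylase/hydrolase (c98673.graph_c0), of the family that cuts and rejoins xyloglucan, was at 31.4 and 36.5 FPKM on day 1 and 688 and 439 FPKM on day 7 (3.98 ± 0.24 SE, limma adjusted p = 0.00712). A glucan endo-1,3-beta-glucosidase (c95629.graph_c0), which hydrolyses callose-type glucan, was at 7.64 and 5.64 FPKM and then 269 and 152 FPKM (4.74 ± 0.30 SE, limma adjusted p = 0.00712). In both genes the day 7 libraries were far above day 1, with repeat 1 the higher. Glucan endo-1,3-beta-glucosidase 14 (c99568.graph_c2), described through corolla, had 1.19 and 3.13 and then 41.6 and 17.7 FPKM. Beta-glucosidase 24 (c97943.graph_c0) went from 0.11 and 0.14 FPKM to 6.31 and 12 FPKM, and polygalacturonase inhibitor 1 (c106485.graph_c0), a protein that binds pectin-cutting enzymes of fungi, from 1.68 and 1.17 to 11.5 and 12.4 FPKM.

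**Figure D2:**
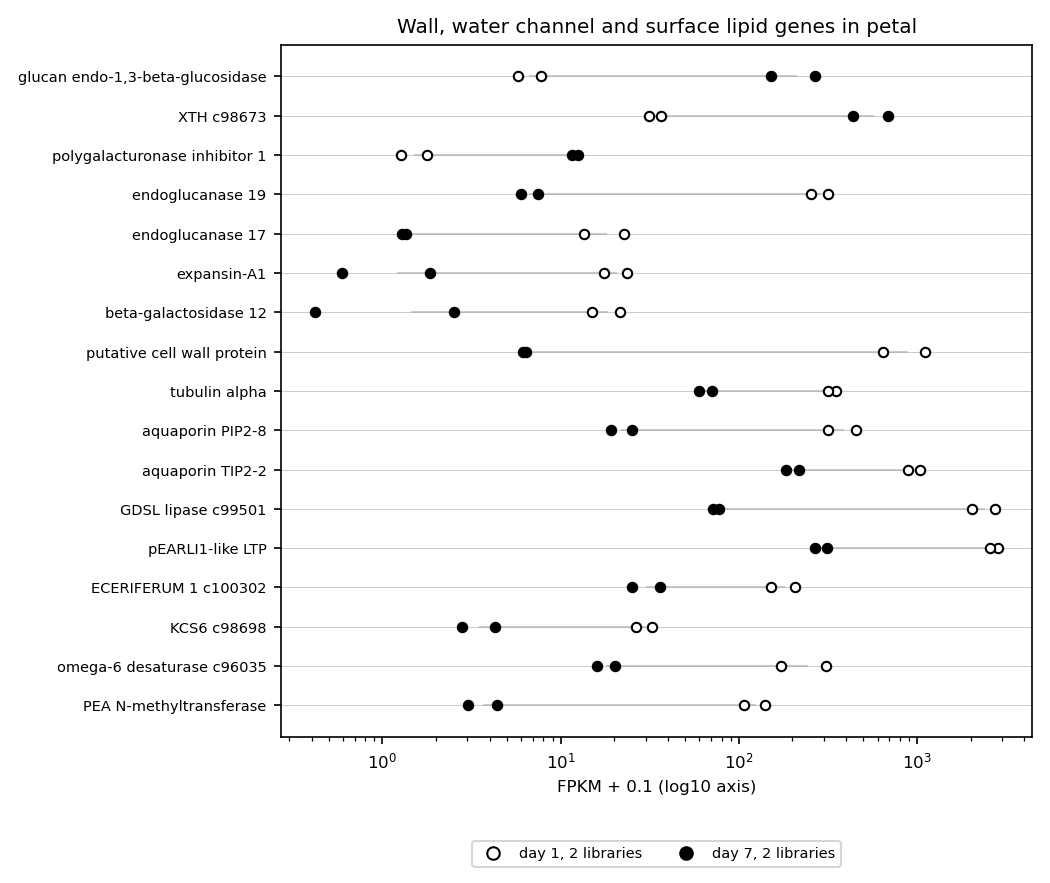
FPKM in each of the 4 petal libraries, on a log10 axis of FPKM + 0.1, for wall, water channel and surface lipid genes. Open circles are the 2 day 1 libraries and filled circles the 2 day 7 libraries. The day 1 and day 7 circles do not overlap for any gene shown, and 3 genes at the top of the plot lie to the right on day 7.

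Genes for 2 water channels and 2 tubulins were among the fallers, chosen by the size of their change. Probable aquaporin PIP2-8 (c96314.graph_c0), a water channel of the plasma membrane, was at 453 and 316 FPKM on day 1 and 25.1 and 18.97 FPKM on day 7 (-4.06 ± 0.23 SE, limma adjusted p = 0.00709). Probable aquaporin TIP2-2 (c102489.graph_c0), a channel of the vacuole membrane, was at 1041 and 894 and then 185 and 216 FPKM (-2.26 ± 0.18 SE, limma adjusted p = 0.00787). Both repeats of day 7 lay below both of day 1 for each channel. Tubulin alpha chain (c105568.graph_c1), a building block of the microtubules that guide cellulose deposition, had 352 and 317 FPKM and then 59.6 and 70.1 FPKM. Tubulin beta-1 chain (c110550.graph_c1) had 36.3 and 23.6 and then 3.77 and 2.83 FPKM. In the list of cytoskeleton, cell cycle and chromatin genes, 11 of 13 members described through petal fell and 0 rose. Of 20 described through corolla alone, 3 fell (15%) and 2 rose (10%). Neither share was above the 22.2% and 10.4% of all genes so described. The list was matched by words and holds false matches, such as proteins described as "interacting" with another. Histone H4 (c93830.graph_c0) was among the fallers, from 98.9 and 72.7 to 19.5 and 26.2 FPKM. After leaving out day 1 repeat 1, 2 members fell and 0 rose, and without day 1 repeat 2, 4 fell and 0 rose.

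Most transcripts of surface lipids and lipid transfer that were described through petal, and so selected for a change, were also lower on day 7. Of 16 fatty acid, wax and cutin genes described through petal, 12 fell (75%) and 2 rose (12.5%), with a median log2 fold change of -1.45. Of 21 described through corolla, 8 fell (38.1%) and 4 rose. Of 23 genes for lipid transfer, lipases and membrane lipids described through petal, 19 fell (82.6%) and 4 rose (17.4%), with a median of -1.66. Of 20 described through corolla, 8 fell (40%) and 4 rose (20%). Among all genes described through petal, 60.3% fell and 31.7% rose, with a median of -1.33. Among all genes described through corolla alone, 22.2% fell and 10.4% rose, and both shares were higher in each of these lists. Without day 1 repeat 1, 6 fell and 2 rose in the first list and 6 fell and 0 rose in the second. In the fit without day 1 repeat 2, the counts were 7 and 2, and 8 and 0.

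A GDSL esterase/lipase (c99501.graph_c0, best match At1g71250) was among the most abundant transcripts of early petals, at 2744 and 2029 FPKM, and was at 71.2 and 77.4 FPKM on day 7 (-4.97 ± 0.21 SE, limma adjusted p = 0.00383). The pEARLI1-type lipid transfer gene c105508.graph_c1 stood at 2842 and 2578 FPKM and then at 267 and 311 FPKM (-3.23 ± 0.21 SE, limma adjusted p = 0.00712). For both, each day 7 library was far below each day 1 library. Non-specific lipid-transfer protein 2 (c86074.graph_c0), of a family that carries lipids through the apoplast, went from 27.2 and 22.8 FPKM to 0.35 and 0.53 FPKM. Alkane hydroxylase MAH1 (c7902.graph_c0), which oxidises wax alkanes in Arabidopsis, was at 49.7 and 18.5 FPKM on day 1 and listed at 0 in both day 7 libraries (limma adjusted p = 0.0096).

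The wax genes did not move as 1 group. ECERIFERUM 1, needed for alkane formation in Arabidopsis, was matched by a gene that fell (c100302.graph_c0, 206 and 151 to 25.1 and 35.8 FPKM, -2.52 ± 0.23 SE, limma adjusted p = 0.00954). It was also matched by a gene that rose (c103187.graph_c0, 58.2 and 66.1 to 135 and 130.4 FPKM, 1.08 ± 0.13 SE, limma adjusted p = 0.0149). The enzyme 3-ketoacyl-CoA synthase 6, which lengthens wax precursors, was likewise matched by a faller (c98698.graph_c0, 32.6 and 26.4 to 2.68 and 4.20 FPKM) and by a riser (c78955.graph_c0, 2.70 and 2.46 to 20.5 and 23.4 FPKM). In each pair the gene that was higher on day 1 was not the one that was higher on day 7. A pair of endoplasmic reticulum omega-6 fatty acid desaturases, which make linoleate, fell together, c96035.graph_c0 from 308 and 173 to 15.9 and 20.1 FPKM and c98940.graph_c0 from 312 and 200.1 to 22.2 and 26.8 FPKM. Phosphoethanolamine N-methyltransferase 1 (c101855.graph_c1), which makes the head group of phosphatidylcholine, fell from 139.9 and 106 to 2.92 and 4.30 FPKM (-4.75 ± 0.22 SE, limma adjusted p = 0.00447). A peroxisomal 3-ketoacyl-CoA thiolase (c100748.graph_c1), of fatty acid breakdown, rose from 342 and 377 to 996 and 778 FPKM, and triacylglycerol lipase 2 (c104738.graph_c0) from 195 and 253 to 510.4 and 577 FPKM.

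The methionine cycle regenerates S-adenosylmethionine, the methyl donor of O-methyltransferases. Of the 12 O-methyltransferase and methionine cycle genes described through petal, 11 fell (91.7%) and 1 rose (8.33%), with a median of -1.71. The shares of all genes so described were 60.3% and 31.7%. Of 8 described through corolla, 2 fell (25.0%) and 0 rose, near the 22.2% of all genes so described. With day 1 repeat 1 left out, 1 fell and 1 rose, and without day 1 repeat 2, 5 fell and 1 rose.

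S-adenosylmethionine synthase 1 (c107477.graph_c0, described through corolla), which makes the methyl donor, had the highest FPKM of the cycle's genes, at 2082 and 1722 FPKM on day 1 and 525 and 691 FPKM on day 7 (-1.65 ± 0.25 SE, limma adjusted p = 0.0222). Another synthase (c94336.graph_c0) was at 183 and 159 and then 64.8 and 81.9 FPKM. Methionine synthase, described as 5-methyltetrahydropteroyltriglutamate-homocysteine methyltransferase, was matched by 4 genes. All 4 fell: c109941.graph_c2 from 779 and 655 to 197 and 264 FPKM, c97766.graph_c0 from 528 and 428 to 127 and 162 FPKM, c109941.graph_c1 from 471 and 431 to 95.4 and 158 FPKM and c107452.graph_c0 from 87.8 and 60.5 to 19.2 and 26.9 FPKM. The first and the third share an assembly number. Adenosylhomocysteinase, which clears the by-product of methylation, fell in both of its genes, c79798.graph_c0 from 106 and 68.5 to 15.4 and 26.1 FPKM and c83018.graph_c0 from 40.7 and 36.1 to 8.24 and 13.04 FPKM. A probable methylenetetrahydrofolate reductase (c105573.graph_c0), which supplies the methyl group, fell from 71.6 and 67.7 to 14.04 and 19.2 FPKM (-2.02 ± 0.18 SE, limma adjusted p = 0.00954). Its other 2 matches did not pass: c95205.graph_c0 had 87.2 and 60.3 and then 16.4 and 35.3 FPKM (limma adjusted p = 0.0618), and c68424.graph_c0 had 1.77 and 2.68 and then 0.31 and 0.35 FPKM (limma adjusted p = 0.0561).

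The O-methyltransferases themselves divided. Their best match by description is trans-resveratrol di-O-methyltransferase, an enzyme of grapevine, and their substrates in narcissus are not given by the files. The first (c48302.graph_c0) was at 4.33 and 10.1 FPKM on day 1 and 196 and 213 FPKM on day 7 (4.74 ± 0.35 SE, limma adjusted p = 0.00712), so that both day 7 libraries were far above day 1. The second (c103420.graph_c0) was far more abundant on day 1, at 2070.3 and 1842 FPKM, and was at 420.1 and 664 FPKM on day 7 (-1.88 ± 0.29 SE, limma adjusted p = 0.0226). The third (c98326.graph_c0) fell from 75.05 and 76.8 to 20.2 and 25.6 FPKM. The fourth (c54333.graph_c0) had 1748 and 1953 FPKM and then 1485 and 2221 FPKM, so that the days overlapped (limma adjusted p = 0.972). The fifth (c112243.graph_c0), at 24.6 and 15.9 and then 3.16 and 8.17 FPKM, missed the threshold (limma adjusted p = 0.0601). Caffeoyl-CoA O-methyltransferase (c89143.graph_c0), of lignin synthesis, overlapped between days at 55.2 and 48.6 and 32.1 and 65.8 FPKM (limma adjusted p = 0.8). Tocopherol O-methyltransferase (c103540.graph_c0), of vitamin E synthesis, fell from 555 and 509.8 to 169 and 241 FPKM, and glucuronoxylan 4-O-methyltransferase 1 (c31315.graph_c0), of wall xylan, from 5.86 and 4.67 to 0.25 and 0.25 FPKM. The remaining members were a reticuline 7-O-methyltransferase match (c105682.graph_c0), at most 3.80 FPKM and not tested, and protein-L-isoaspartate O-methyltransferase (c99555.graph_c0), which repairs damaged proteins, at 5.35 and 9.92 and then 16.1 and 13.9 FPKM (limma adjusted p = 0.106).

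**Figure D3:**
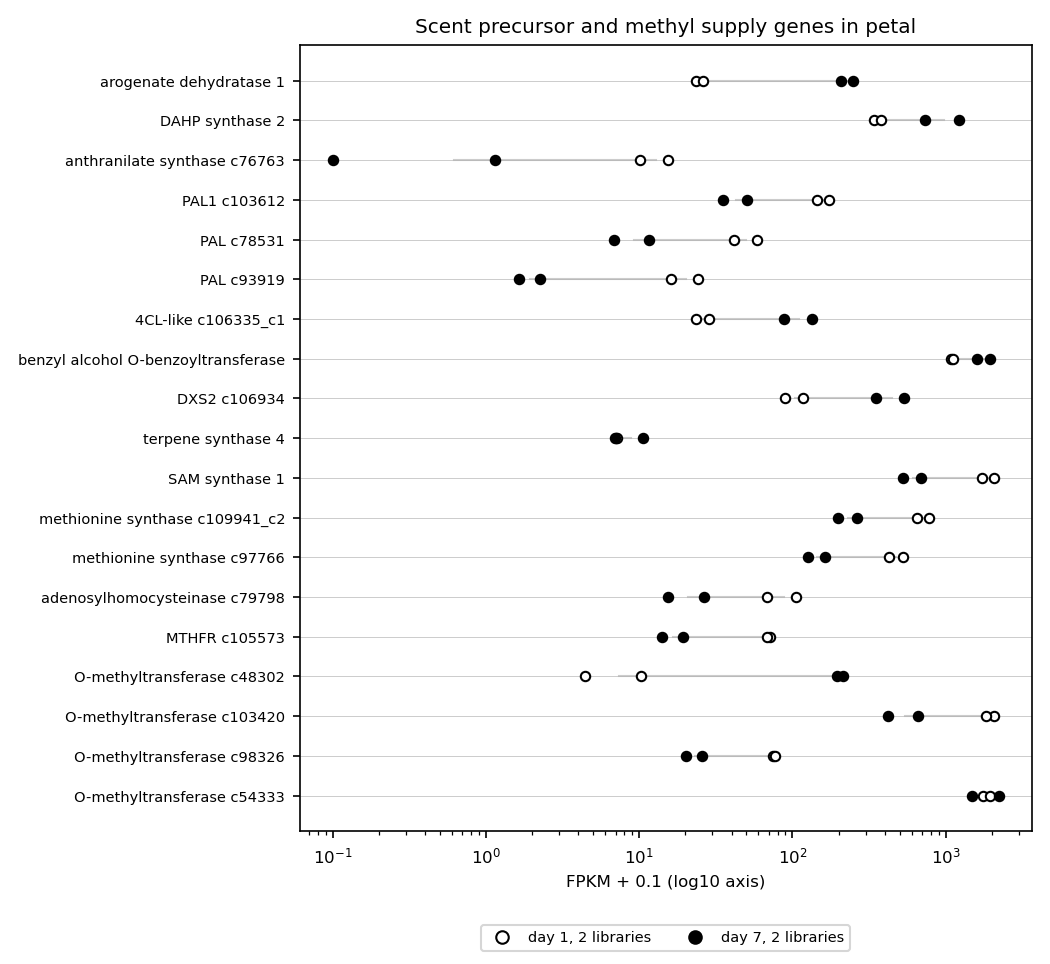
FPKM in each of the 4 petal libraries, on a log10 axis of FPKM + 0.1, for genes of phenylalanine and benzenoid synthesis, plastid terpenoid precursors, the methionine cycle and O-methyltransferases. Open circles are day 1 and filled circles day 7; the methionine cycle genes lie to the left on day 7, while arogenate dehydratase 1 and 1 O-methyltransferase lie to the right.

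Single genes of scent precursor supply changed in each direction. In phenylalanine supply, arogenate dehydratase/prephenate dehydratase 1 (c106196.graph_c0), which commits the shikimate pathway to phenylalanine, was at 23.2 and 26.1 FPKM on day 1 and 209 and 250.1 FPKM on day 7 (3.16 ± 0.15 SE, limma adjusted p = 0.00447). The entry enzyme of that pathway (c99662.graph_c0, phospho-2-dehydro-3-deoxyheptonate aldolase 2) had 341 and 376 and then 735 and 1221 FPKM (1.40 ± 0.28 SE, limma adjusted p = 0.0415). Both genes were higher in both day 7 libraries. Anthranilate synthase, which diverts the same precursor to tryptophan, fell in both genes matched to its alpha subunit. The first (c76763.graph_c0) had 15.4 and 10.03 FPKM and then 1.04 and 0 FPKM, and the second (c77285.graph_c0) 28.1 and 18.1 and then 6.51 and 5.12 FPKM. Arogenate dehydrogenase 2 (c55524.graph_c0), of the tyrosine branch, was at 21.5 and 30.3 and then 43.1 and 67.7 FPKM (limma adjusted p = 0.0691), the aspartate/prephenate aminotransferase match (c79555.graph_c0) at 53.8 and 59.6 and then 82.7 and 99.7 FPKM (limma adjusted p = 0.0538). Arogenate dehydratase 6 (c98687.graph_c0) was at 13.9 and 8.38 and then 5.91 and 7.86 FPKM (limma adjusted p = 0.242) and isochorismate synthase 2 (c106956.graph_c2) at 6.40 and 7.36 and then 4.65 and 5.09 FPKM (limma adjusted p = 0.246). In the shikimate list as a whole, the members described through petal gave 1 riser and 1 faller, and those described through corolla 1 riser (12.5%) and 2 fallers (25.0%) of 8, near the shares of all genes so described. After leaving out day 1 repeat 1 the list gave 1 riser and 0 fallers, and without day 1 repeat 2, 1 and 2.

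Phenylalanine ammonia-lyase, which opens the phenylpropanoid pathway, fell in all 3 of its described genes. They were c103612.graph_c0 (174 and 144 to 34.8 and 50.4 FPKM), c78531.graph_c0 (58.2 and 41.6 to 6.74 and 11.4 FPKM) and c93919.graph_c0 (23.98 and 15.97 to 1.55 and 2.14 FPKM). In each, both day 7 libraries lay below both day 1 libraries. Of the genes matched to 4-coumarate-CoA ligases, which activate cinnamate-type acids, the probable ligase 2 (c106120.graph_c0) fell from 19.9 and 13.7 to 1.85 and 4.80 FPKM. Ligase 1 (c100198.graph_c0, 2.39 and 1.99 to 7.27 and 12.03 FPKM) and the ligase-like genes c106335.graph_c1 (23.5 and 28.5 to 88.04 and 133 FPKM), c106335.graph_c0 (3.95 and 2.39 to 10.3 and 13.2 FPKM) and c109999.graph_c1 (9.47 and 12.99 to 31.7 and 51.5 FPKM) rose. The benzyl alcohol O-benzoyltransferase gene (c95879.graph_c2), whose product makes benzyl benzoate, was abundant on both days, at 1082 and 1121 and then 1598 and 1961 FPKM, and its difference did not pass (limma adjusted p = 0.134). The benzoyltransferase match c95748.graph_c0 stayed at or below 1.43 FPKM and was not tested. Without day 1 repeat 1, 1 member fell and 0 rose, and without day 1 repeat 2, 3 fell and 1 rose, against 4 and 4 with all libraries.

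In the plastid terpenoid route, c106934.graph_c1, a gene for 1-deoxy-D-xylulose-5-phosphate synthase 2, of the entry step, had 89.5 and 117 FPKM and then 353 and 534 FPKM (2.08 ± 0.25 SE, limma adjusted p = 0.0145). In this fit it was the 1 member that passed of the 6 tested. In the fit without day 1 repeat 1 its call was lost, and without day 1 repeat 2, 2 members rose. The second gene of that name (c54414.graph_c0) was at 5.73 and 12.5 and 19.8 and 25.5 FPKM (limma adjusted p = 0.0773), and synthase 1 (c107914.graph_c0) at 32.9 and 31.9 and 40.3 and 37.7 FPKM (limma adjusted p = 0.255). A later enzyme of the route (c91750.graph_c0, described as acting on 2-C-methyl-D-erythritol 4-phosphate) was at 14.8 and 13.2 and 5.82 and 9.60 FPKM (limma adjusted p = 0.108). Terpene synthase 4 (c101367.graph_c0) had overlapping days at 6.98 and 7.04 and 6.86 and 10.5 FPKM (limma adjusted p = 0.569), as did geranylgeranyl diphosphate reductase (c103829.graph_c0), of chlorophyll and tocopherol synthesis, at 18.3 and 24.5 and 22.3 and 26.8 FPKM (limma adjusted p = 0.569). A cytochrome P450 described as isoleucine N-monooxygenase 1 (c95271.graph_c2), of a family that turns amino acids into oximes, was singled out after its values were seen. It stood at 42.3 and 43.2 FPKM on day 1 and 269.9 and 466 FPKM on day 7 (3.02 ± 0.27 SE, limma adjusted p = 0.00951).

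Pigment and lignin branch genes were counted in 2 lists. Of 13 lignin and flavonoid genes described through petal, 10 fell and 1 rose, and of 11 described through corolla, 4 fell (36.4%) and 2 rose (18.2%), against 22.2% and 10.4% of all genes so described. An anthocyanidin 5,3-O-glucosyltransferase (c109499.graph_c1), which adds sugars to anthocyanidins in rose, was at 1869.5 and 1661 FPKM and then 402 and 527 FPKM (-1.93 ± 0.23 SE, limma adjusted p = 0.0138). A cinnamyl alcohol dehydrogenase match (c103687.graph_c0), of lignin synthesis, was at 297 and 208 and then 44.3 and 57.1 FPKM. Laccase-17 (c86790.graph_c0), which couples lignin units, was at 4.03 and 2.99 FPKM on day 1 and listed at 0 in both day 7 libraries. All 3 genes were lower in both day 7 libraries. Of 4 tested carotenoid genes described through petal, 3 fell and zeaxanthin epoxidase (c104304.graph_c0), which makes violaxanthin, rose from 24.96 and 32.05 to 98.8 and 139 FPKM. Lycopene epsilon cyclase (c109754.graph_c4), which opens the lutein branch, fell from 14.1 and 14 to 2.32 and 1.71 FPKM. Of 8 carotenoid genes described through corolla, 1 fell (12.5%) and 0 rose. With day 1 repeat 1 left out the lignin and flavonoid list had 3 fallers and 0 risers and the carotenoid list 0 of each, and without day 1 repeat 2 they had 6 and 0, and 2 and 1.

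Hormone genes were counted in 3 lists, and no difference between the lists was tested. In the abscisic acid and gibberellin list, 13 of 15 members described through petal rose (86.7%) and 1 fell (6.67%). Their median log2 fold change was 1.86, and 31.7% of all genes described through petal rose and 60.3% fell. None of the 4 tested members described through corolla passed. Gibberellin 2-beta-dioxygenase inactivates gibberellins. Its gene c101837.graph_c0 was at 0.98 and 1.90 FPKM on day 1 and 72.5 and 43.3 FPKM on day 7 (4.57 ± 0.32 SE, limma adjusted p = 0.00712), and a second gene (c99087.graph_c0) at 1.61 and 1.75 and then 22.6 and 17.6 FPKM (2.97 ± 0.22 SE, limma adjusted p = 0.00712). Cytochrome P450 714B1 (c110967.graph_c0) and 714B2 (c106289.graph_c0), matched to gibberellin-modifying enzymes of rice, went from 0.45 and 1.16 to 16.3 and 14.2 FPKM and from 1.64 and 2.97 to 12.8 and 12.5 FPKM. All 4 genes were several-fold higher in both day 7 libraries. The cysteine-rich peptide gene snakin-2 (c96515.graph_c0), of a family under gibberellin control, went from 3.54 and 5.21 to 65.1 and 77.3 FPKM, whereas gibberellin-regulated protein 6 (c99390.graph_c0), of the same family, fell from 219 and 172 to 25.6 and 35.9 FPKM (-2.64 ± 0.21 SE, limma adjusted p = 0.00799). Protein phosphatase 2C 9 (c106444.graph_c0), of a family that includes abscisic acid co-receptors, rose from 2.99 and 5.19 to 22.98 and 18.04 FPKM. ABC transporter G family member 25, an abscisic acid exporter in Arabidopsis, was matched by 2 genes. They rose from 1.68 and 1.25 to 18.03 and 21.6 FPKM (c106250.graph_c0, 3.08 ± 0.22 SE, limma adjusted p = 0.00712) and from 0.70 and 1.62 to 14.3 and 17.9 FPKM (c87338.graph_c0). After leaving out day 1 repeat 1, 3 members of the list rose and 1 fell, and without day 1 repeat 2, 9 rose and 1 fell.

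Of the 9 members of the jasmonate list, all described through petal and so selected for a change, 8 fell and 1 rose. These shares, 88.9% and 11.1%, stand against 60.3% and 31.7% of all genes so described. The list's median was -1.71. Linoleate 13S-lipoxygenase 2-1 (c109126.graph_c0), which starts jasmonate synthesis in plastids, was at 60.4 and 58.7 FPKM on day 1 and 7.31 and 7.96 FPKM on day 7 (-2.81 ± 0.14 SE, limma adjusted p = 0.00512). Allene oxide cyclase, a later step, fell in both of its genes, c104874.graph_c0 (29.7 and 28.03 to 5.81 and 10.8 FPKM) and c102655.graph_c0 (5.55 and 7.59 to 0.29 and 0.43 FPKM). The 12-oxophytodienoate reductase 7 gene (c103909.graph_c0), of a step after that, went from 45.4 and 44.6 to 10.4 and 16.4 FPKM. These genes were lower in both day 7 libraries at each step named. TIFY 5A (c86683.graph_c0), of the family of jasmonate response repressors, was at 9.17 and 6.88 FPKM and listed at 0 in both day 7 libraries. The member that rose was linoleate 9S-lipoxygenase 5 (c107209.graph_c2), of the 9-lipoxygenase branch, from 29.8 and 73.7 to 216 and 267 FPKM (2.33 ± 0.42 SE, limma adjusted p = 0.0326). Without day 1 repeat 1, 1 member fell and 0 rose, and without day 1 repeat 2, 1 fell and 1 rose. Without day 7 repeat 2, the lipoxygenase 5 call was lost.

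Ethylene and auxin genes included risers and fallers. Of 15 described through petal, 6 rose (40%) and 8 fell (53.3%), against 31.7% and 60.3% of all genes so described. Of 5 described through corolla, 0 rose and 1 fell (20%), against 10.4% and 22.2% of all genes so described. Ethylene-responsive transcription factor 2 (c94745.graph_c0) fell from 108 and 75.7 to 12.7 and 28.1 FPKM and ethylene-responsive transcription factor 4 (c97432.graph_c0) rose from 1.82 and 2.40 to 8.51 and 13.1 FPKM. Auxin-binding protein ABP19a (c89507.graph_c0), of the germin-like wall proteins, fell from 54.2 and 29.1 to 1.60 and 1.20 FPKM (-4.09 ± 0.33 SE, limma adjusted p = 0.00787). GH3.1 (c105405.graph_c0), which conjugates auxin to amino acids, rose from 44.6 and 43.6 to 147 and 152 FPKM (1.74 ± 0.12 SE, limma adjusted p = 0.00712), with close repeats on both days. A probable auxin efflux carrier component 2 (c114464.graph_c0) was listed at 0 in both day 1 libraries and at 2.43 and 2.11 FPKM on day 7. In the fit without day 1 repeat 1 the list had 1 riser and 1 faller, and without day 1 repeat 2, 3 and 1.

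Carriers held several of the largest rises. Of 50 transporter genes described through petal, 26 rose (52%) and 21 fell (42%), with a median of 1.07. Among all genes described through petal, 31.7% rose and 60.3% fell. Of 29 transporter genes described through corolla, 6 rose (20.7%) and 3 fell (10.3%), against 10.4% and 22.2% of all genes so described. Amino acid permease 1 (c103185.graph_c1), a proton-coupled amino acid importer, had the largest rise of any described gene. It was at 3.57 and 7.17 FPKM on day 1 and 259 and 157 FPKM on day 7 (5.05 ± 0.36 SE, limma adjusted p = 0.00712), with both day 7 libraries far above both day 1 libraries. A second gene of that name (c109011.graph_c3) was at 4.0 and 3.86 and then 76.99 and 44.99 FPKM (3.60 ± 0.27 SE, limma adjusted p = 0.00718). An ADP,ATP carrier (c104460.graph_c1), which exchanges these nucleotides across the inner mitochondrial membrane, went from 6.70 and 6.77 to 205 and 139 FPKM (4.45 ± 0.21 SE, limma adjusted p = 0.00447). Metal tolerance protein 1 (c94098.graph_c1), which moves zinc into the vacuole in Arabidopsis, went from 1.42 and 3.78 to 65.05 and 37.2 FPKM. In all 4 genes day 7 repeat 1 was the highest library.

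A metallothionein (c89381.graph_c0), a small metal-binding protein described through corolla, was at 284 and 333 FPKM and then 4905 and 2299.8 FPKM (3.44 ± 0.39 SE, limma adjusted p = 0.0124). Its day 7 repeats differed from each other and both were far above day 1. Pleiotropic drug resistance protein 2 (c90494.graph_c4), an ABC exporter, rose from 0.84 and 0.95 to 20.6 and 16.97 FPKM. Other ABC transporters fell, among them the B family pair c107770.graph_c0 (23.5 and 19.2 to 2.72 and 2.88 FPKM) and c107770.graph_c1 (19.4 and 14.03 to 2.53 and 1.36 FPKM), which share an assembly number, and G family member 23 (c101970.graph_c0, 14.1 and 10.1 to 1.49 and 0.39 FPKM). With day 1 repeat 1 left out, 7 transporter genes rose and 4 fell, and without day 1 repeat 2, 11 rose and 8 fell.

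Of 42 transcription factors described through petal, 13 rose (31.0%) and 27 fell (64.3%), near the 31.7% and 60.3% of all genes so described. Of 31 described through corolla, 8 rose (25.8%) and 3 fell (9.68%), against 10.4% and 22.2% of all genes so described. Myb-related protein 305, which in snapdragon flowers activates phenylpropanoid genes that include phenylalanine ammonia-lyase, was matched by 2 genes. The first (c105121.graph_c1) was at 476 and 441 FPKM on day 1 and 22.2 and 28.2 FPKM on day 7 (-4.14 ± 0.16 SE, limma adjusted p = 0.00383), and the second (c93159.graph_c2) at 54.6 and 44.96 and then 1.29 and 1.45 FPKM (-4.42 ± 0.19 SE, limma adjusted p = 0.00383). The repeats were close on each day and the days were far apart. The B-class MADS-box gene c106110.graph_c1 given above fell (-2.40 ± 0.17 SE, limma adjusted p = 0.00712). IBH1 (c98607.graph_c0), a helix-loop-helix protein that restrains cell elongation in Arabidopsis, fell from 20 and 17.9 to 2.09 and 2.96 FPKM, and bHLH150 (c97788.graph_c0) from 29.9 and 22.03 to 2.44 and 5.17 FPKM.

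The largest rises among transcription factors were in the NAC family, plant factors of which several drive senescence. NAC domain-containing protein 48 was matched by c97748.graph_c0, at 2.61 and 4.92 FPKM and then 75.5 and 62.2 FPKM (3.91 ± 0.27 SE, limma adjusted p = 0.00712). It was also matched by c54607.graph_c0, at 2.06 and 3.05 and then 29.96 and 25.02 FPKM (3.01 ± 0.23 SE, limma adjusted p = 0.00712). NAC100 (c104534.graph_c0), described through corolla, was at 5.96 and 15.7 and then 104 and 65.6 FPKM. Each day 7 library exceeded each day 1 library several-fold in these 3 genes. Homeobox-leucine zipper protein HOX16 (c111607.graph_c0) rose from 3.22 and 2.99 to 22.1 and 15.99 FPKM and Myb-related protein 306 (c103387.graph_c2) from 0.46 and 0.70 to 6.32 and 8.03 FPKM. CEN-like protein 1 (c29571.graph_c0), of the family of flowering repressors around snapdragon CENTRORADIALIS, was at 0.08 and 0.49 FPKM and then 17.1 and 10.03 FPKM (3.48 ± 0.35 SE, limma adjusted p = 0.0104). After leaving out day 1 repeat 1, 5 transcription factors rose and 4 fell, and without day 1 repeat 2, 7 rose and 6 fell.

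Defence proteins included some of the most abundant transcripts of the open petal. Of 13 described through petal, 7 rose (53.8%) and 5 fell (38.5%), against 31.7% and 60.3% of all genes so described. Of 5 described through corolla, 1 rose and 1 fell (20% each), against 10.4% and 22.2% of all genes so described. Thaumatin-like protein 1 (c109421.graph_c0), of an antifungal family, was at 1169.5 and 1433 FPKM on day 1 and 6003 and 8113 FPKM on day 7 (2.43 ± 0.35 SE, limma adjusted p = 0.0193). A close second (c98760.graph_c0) was at 1003 and 1441 and 6065 and 8206 FPKM. The values of these genes track each other, and reads may be shared between them. Pathogenesis-related protein PR-4B (c103444.graph_c1), a chitin-binding protein, rose from 598 and 766 to 2988 and 4528 FPKM (2.44 ± 0.32 SE, limma adjusted p = 0.0162), while another PR-4B gene (c105547.graph_c0) fell from 149.7 and 164 to 38.3 and 62.2 FPKM. The fallers included 2 proteinase inhibitors. Cysteine proteinase inhibitor 1 (c111264.graph_c0), which blocks papain-type proteases, was at 387 and 476 FPKM and then 6.48 and 30.7 FPKM (-4.80 ± 0.65 SE, limma adjusted p = 0.0174), and a trypsin inhibitor (c96639.graph_c0) at 300.2 and 376 and then 28.3 and 28.3 FPKM (-3.52 ± 0.16 SE, limma adjusted p = 0.00385). Without day 1 repeat 1 the list had 0 risers and 2 fallers, and without day 1 repeat 2, 1 and 2.

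Of 29 protein breakdown genes described through petal, 11 rose (37.9%) and 17 fell (58.6%), near the 31.7% and 60.3% of all genes so described. Of 31 described through corolla, 5 rose (16.1%) and 3 fell (9.68%), against 10.4% and 22.2% of all genes so described. The cysteine proteinase inhibitor above is counted there by its name. A cathepsin B-like cysteine proteinase (c87313.graph_c0) rose from 1.10 and 1.02 to 10.6 and 8.01 FPKM and a subtilisin-like protease (c107986.graph_c0) from 72.05 and 77.6 to 278 and 295 FPKM (1.92 ± 0.13 SE, limma adjusted p = 0.00712), both proteases of the endomembrane system. The aspartic proteases c90684.graph_c3 (43.4 and 36.5 to 8.11 and 5.04 FPKM) and c104237.graph_c0 (9.89 and 8.09 to 1.03 and 1.12 FPKM) fell. A senescence-associated protein match (c111616.graph_c0) was listed at 0 in both day 1 libraries and at 4.72 and 2.98 FPKM on day 7. Of 5 nuclease and senescence-associated genes described through petal, 1 rose and 1 fell (20% each), against 31.7% and 60.3% of all genes so described. Of 12 described through corolla, 4 rose (33.3%) and 1 fell (8.33%), against 10.4% and 22.2% of all genes so described. Endonuclease genes were among those 12. The riser c110801.graph_c0 was at 9.45 and 12.2 and then 44.6 and 29.1 FPKM. The faller, c99526.graph_c1, was at 259 and 245 and then 137 and 128 FPKM. In the fit without day 1 repeat 1 the proteolysis list had 3 risers and 2 fallers and the nuclease list 0 of each, and without day 1 repeat 2 they had 6 and 6, and 0 of each.

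Redox and stress-tolerance genes included risers and fallers. Of 13 redox genes described through petal, 5 rose (38.5%) and 8 fell (61.5%), near the 31.7% and 60.3% of all genes so described. Of 14 described through corolla, 1 rose (7.14%) and 7 fell (50%), against 10.4% and 22.2% of all genes so described. Nucleoredoxin 2 (c101176.graph_c0), a thiol-disulfide oxidoreductase, was outside that list by its name and rose from 2.82 and 3.30 to 79.6 and 55.3 FPKM (4.06 ± 0.22 SE, limma adjusted p = 0.00681). Peroxidase 5 (c97009.graph_c0) rose from 0.50 and 0.50 to 7.31 and 9.05 FPKM, and peroxidase 12 (c106333.graph_c0) fell from 68.8 and 52.4 to 5.71 and 9.39 FPKM. A germin-like protein (c54123.graph_c0), of a family of extracellular oxidases, rose from 0.31 and 1.46 to 34.2 and 18.2 FPKM. Of 22 cytochrome P450 and glycosyltransferase genes described through petal, 10 rose (45.5%) and 9 fell (40.9%), against 31.7% and 60.3% of all so described. Of 16 described through corolla, 2 rose (12.5%) and 3 fell (18.75%), near the 10.4% and 22.2% of all genes so described. Cytochrome P450 76C4 (c105417.graph_c1) was the most abundant riser of that list, at 69.3 and 91.9 and then 318 and 576 FPKM (2.41 ± 0.32 SE, limma adjusted p = 0.0165), and cytochrome P450 86B1-like (c104614.graph_c1), of suberin and cutin monomer synthesis in Arabidopsis, fell from 31 and 26.4 to 0.35 and 2.12 FPKM. With day 1 repeat 1 left out the redox list had 1 riser and 1 faller and the P450 list 3 and 2, and without day 1 repeat 2 they had 1 and 4, and 6 and 3.

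In the translation, photosynthesis and protein folding lists, most members described through petal fell, against 60.3% of all genes so described. All 11 ribosomal and translation genes described through petal fell, and of 44 described through corolla 18 fell (40.9%) and 1 rose. The member that rose is a transcription elongation factor, SPT5 (c89483.graph_c0), which the list caught by its name. Of 14 photosynthesis genes described through petal 12 fell and 0 rose, and of 24 described through corolla 7 fell (29.2%) and 0 rose. Of 12 chaperone genes described through petal 10 fell and 0 rose, and of 17 described through corolla 3 fell (17.6%) and 0 rose, a share below the 22.2% of all genes described through corolla. Heat shock protein 81-3 (c94919.graph_c1), a cytosolic chaperone, was at 273 and 253 FPKM and then 34.3 and 33.8 FPKM (-2.91 ± 0.13 SE, limma adjusted p = 0.00383). The photosystem II 10 kDa polypeptide gene (c107432.graph_c0) was at 235 and 207 and then 60.1 and 63.5 FPKM (-1.82 ± 0.14 SE, limma adjusted p = 0.00712). Repeats were close on each day in both genes. After leaving out day 1 repeat 1, the numbers that fell were 0, 2 and 7 in the ribosomal, photosynthesis and chaperone lists, and without day 1 repeat 2 they were 1, 4 and 5. Without day 7 repeat 2, 44 of the ribosomal list fell and 3 rose.

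Of 8 sugar metabolism genes described through petal, 5 fell (62.5%) and 1 rose (12.5%), against 60.3% and 31.7% of all genes so described. Of 13 described through corolla, 3 fell (23.1%) and 2 rose (15.4%), against 22.2% and 10.4% of all genes so described. Alpha-amylase 3 (c110052.graph_c0), a plastid starch-degrading enzyme, fell from 46.5 and 41.1 to 10.3 and 9.48 FPKM (-2.04 ± 0.15 SE, limma adjusted p = 0.00712), and sucrose synthase 3 (c95290.graph_c1), which cleaves sucrose, from 16.8 and 16.5 to 3.40 and 4.63 FPKM. Trehalose-phosphate synthase 5 (c102251.graph_c0) rose from 28.1 and 33.5 to 80.97 and 81.9 FPKM, and neutral/alkaline invertase 3 (c100681.graph_c1), which also cleaves sucrose, from 68.5 and 68.3 to 134 and 118 FPKM. Of 36 protein kinases described through petal, 15 rose (41.7%) and 17 fell (47.2%), against 31.7% and 60.3% of all genes so described. Of 37 described through corolla, 5 rose (13.5%) and 8 fell (21.6%), near the 10.4% and 22.2% of all genes so described. Somatic embryogenesis receptor kinase 1 (c99769.graph_c0), a co-receptor kinase, was at 0 and 0.07 FPKM and then 2.07 and 5.02 FPKM. A gene described as probable inactive receptor kinase At1g48480 (c107260.graph_c0) fell from 120.2 and 102 to 22.6 and 26.1 FPKM. Without day 1 repeat 1 the sugar list had 0 risers and 1 faller and the kinase list 0 and 2, and without day 1 repeat 2 they had 2 and 3, and 0 and 4. The pollen markers gave 2 risers and 3 fallers, and without day 1 repeat 1, 0 and 2. Pollen-specific protein-like At4g18596 (c97442.graph_c0) fell from 65.9 and 40.1 to 0.64 and 1.92 FPKM (-4.58 ± 0.37 SE, limma adjusted p = 0.00799), and pollen-specific protein C13 was matched by a faller (c86428.graph_c0, 26.3 and 23.2 to 1.86 and 2.01 FPKM) and by 2 risers, c32095.graph_c0 (5.12 and 6.59 to 23.6 and 22.3 FPKM) and c95015.graph_c0 (2.44 and 7.24 to 25.2 and 20.01 FPKM).

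**Figure D4:**
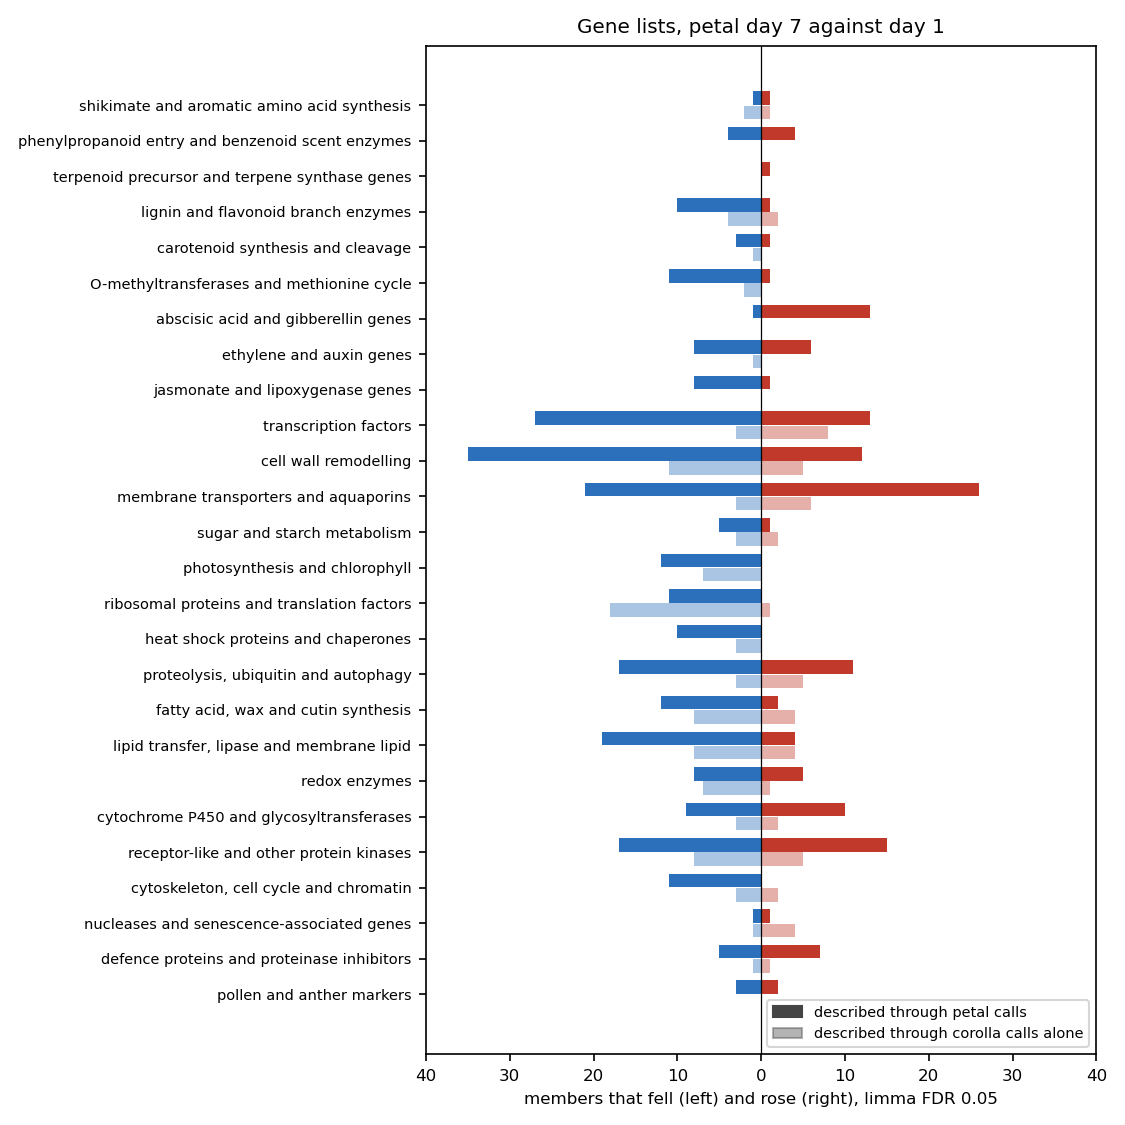
Number of members that rose (right) and fell (left) in petal for each gene list, with members described through petal calls in dark bars and those described through corolla calls alone in light bars. Rises outnumber falls in the abscisic acid and gibberellin (13 against 1), transporter, defence, nuclease and senescence, and terpenoid lists, and no member rose among the chaperone and photosynthesis genes. Of all genes described through petal, 31.7% rose and 60.3% fell, and of those described through corolla alone, 10.4% and 22.2%.

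Of the 10 most abundant genes of the petal libraries, 1 passed the test, and 7 have no description. The top gene (c73852.graph_c0) took up 6.12% to 9.53% of the summed FPKM of a library and had 58795 and 71817 FPKM on day 1 and 50794 and 85878 FPKM on day 7. The gene that passed was the thaumatin-like gene c109421.graph_c0 above. A trio of undescribed genes varied more between repeats than between days. Values were 4128 and 9632 and 18456 and 6006 FPKM for c93840.graph_c0, 5064 and 9444 and 15457 and 4253 FPKM for c106549.graph_c1 and 4585 and 8668 and 14296 and 3723 FPKM for c106549.graph_c2. All 3 were highest in day 7 repeat 1 and next highest in day 1 repeat 2. Early light-induced protein 1 (c108016.graph_c0), a chlorophyll-binding stress protein of plastids, was at 5902 and 4635 and 3320.0 and 3750.2 FPKM (limma adjusted p = 0.385). The others, c110924.graph_c1, c111055.graph_c1, c86170.graph_c0 and c110090.graph_c3, lay between 3545 and 9347 FPKM in every petal library.

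Corolla libraries of the same days show where the petal change differed. For genes in both tables, the day effect in petal minus that in corolla was tested over all 8 libraries, as a log2 difference. Of 26460 tested genes 173 passed (0.654%), with the petal effect higher in 104 and lower in 69. Without corolla day 1 repeat 1 only 14 passed, without petal day 1 repeat 1 only 20, without petal day 1 repeat 2 only 43 and without corolla day 1 repeat 2 only 46. Without petal day 7 repeat 1 the count was 84 and without corolla day 7 repeat 2 it was 96. Of the 21 named genes that passed, 3 to 14 lost their call when 1 library was left out, the most without petal day 1 repeat 1. Without a trend of the prior variance 14 lost it. In 12 of the 173 genes, 1 tissue had fewer than 2 libraries at 1 FPKM, so that only the other tissue could show a day effect. In genes above that filter, a low day 1 level in 1 tissue still limited how far they could fall there on the log2(FPKM + 1) scale.

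The trypsin inhibitor c96639.graph_c0 fell in petal, whereas in corolla it was at 77.3 and 87.6 FPKM on day 1 and 78.9 and 113 FPKM on day 7 (difference -3.72 ± 0.26 SE, limma adjusted p = 0.0023). Its corolla days overlapped, while its petal days were far apart. The uncharacterized gene c54411.graph_c0 was at 12.2 and 9.31 and 0.10 and 0.14 FPKM in corolla (-3.99 ± 0.35 SE, limma adjusted p = 0.00543). It was below 1 FPKM on day 7 in both tissues, and its lower day 1 level in corolla limited the fall there. The proline-rich gene c77264.graph_c0 was at 3.86 and 4.04 and 1.41 and 2.20 FPKM in corolla (-3.34 ± 0.53 SE, limma adjusted p = 0.0395). Uncharacterized c109509.graph_c0, at 169.9 and 131 and 24.6 and 40.8 FPKM in petal, was at 0.58 and 0.55 and 2.71 and 2.31 FPKM in corolla (-3.36 ± 0.34 SE, limma adjusted p = 0.00888). The low day 1 corolla levels of c77264.graph_c0 and c109509.graph_c0 likewise left little room for a fall. Fasciclin-like arabinogalactan protein 11 (c93723.graph_c0), a wall glycoprotein, was at 25.8 and 24.1 and then 7.25 and 6.73 FPKM in petal and at 0.84 and 2.45 and then 5.20 and 10.5 FPKM in corolla (-3.44 ± 0.50 SE, limma adjusted p = 0.0306). Its values fell in petal and were higher on day 7 in corolla.

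Xyloglucan endotransglucosylase/hydrolase 2 (c96460.graph_c3) was already present in petal on day 1, at 30.96 and 30.3 and then 48.99 and 59.5 FPKM, and in corolla it was at 0.51 and 0 and then 25.6 and 17.5 FPKM (-3.38 ± 0.35 SE, limma adjusted p = 0.00888). The uncharacterized gene c86033.graph_c1 showed the same order, with 37.9 and 38.03 and 33.3 and 35.8 FPKM in petal and 2.74 and 3.18 and 40.5 and 37.4 FPKM in corolla (-3.47 ± 0.18 SE, limma adjusted p = 0.000727). Both petal days therefore resembled the day 7 corolla more than the day 1 corolla. In the other direction, the sugar transporter SWEET4 (c54457.graph_c0) was at 0.31 and 1.15 FPKM in petal on day 1 and listed at 0 on day 7, and in corolla it was at 134 and 57.8 and then 0.22 and 0.95 FPKM. It was below the petal filter and could not have fallen in petal. Its difference (5.10 ± 0.61 SE, limma adjusted p = 0.0153) therefore restates the corolla change and shows no difference between day effects. Palmitoyl-acyl carrier protein thioesterase (c103026.graph_c0), which releases palmitate from plastid synthesis, was at 1.75 and 1.69 and 0.43 and 0.14 FPKM in petal, little above the filter on day 1, and at 82.1 and 65.97 and 0.93 and 0.61 FPKM in corolla (4.31 ± 0.33 SE, limma adjusted p = 0.00275). Uncharacterized c103316.graph_c5 was at 19.7 and 28.02 and 16.7 and 18.8 FPKM in petal and at 251 and 253 and 18.5 and 18.1 FPKM in corolla (3.32 ± 0.23 SE, limma adjusted p = 0.0023).

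Members of the petal lists named above also differed. The ECERIFERUM 1 riser c103187.graph_c0 was at 15.6 and 15.2 FPKM and then 2.80 and 2.76 FPKM in corolla (3.20 ± 0.17 SE, limma adjusted p = 0.000727), so that it rose in petal and was lower on day 7 in corolla. The 3-ketoacyl-CoA synthase 6 faller c98698.graph_c0 was at 7.36 and 7.12 and 6.80 and 6.69 FPKM in corolla (-2.70 ± 0.29 SE, limma adjusted p = 0.011). The isoleucine N-monooxygenase c95271.graph_c2 did not exceed 0.46 FPKM in any corolla library, against a minimum of 42.3 FPKM in petal, so that a day effect in corolla could not be measured. Both of the following genes are described as phenylalanine ammonia-lyases. For c103612.graph_c0, corolla was at 162 and 145 and 12.7 and 12.6 FPKM (1.61 ± 0.26 SE, limma adjusted p = 0.0403), and for c93919.graph_c0 at 26.6 and 32.3 and 20.02 and 15.99 FPKM (-2.18 ± 0.32 SE, limma adjusted p = 0.0321). Aquaporin TIP2-2 (c102489.graph_c0) was at 432 and 505 and 398 and 337 FPKM in corolla (-1.92 ± 0.22 SE, limma adjusted p = 0.0132). Synthase 1 of the plastid terpenoid route (c107914.graph_c0), which did not pass in petal, was at 181 and 162 and 40.6 and 43.4 FPKM in corolla (2.26 ± 0.16 SE, limma adjusted p = 0.0023).

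**Figure D5:**
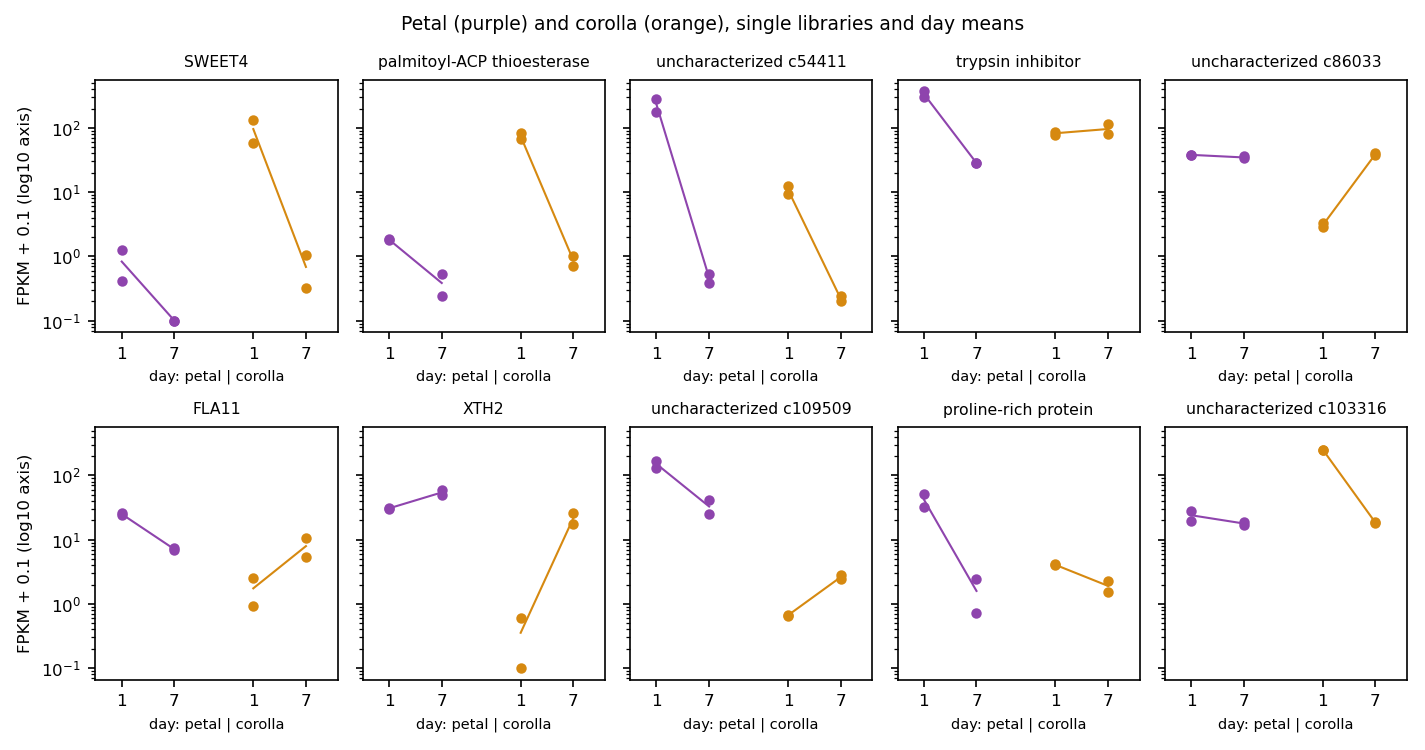
FPKM in each library, on a log10 axis of FPKM + 0.1, for the 10 described genes with the largest differences between the petal and the corolla day effect, with petal on the left and corolla on the right of each panel. Circles are single libraries and lines join the day means; FLA11 is lower on day 7 in petal and higher on day 7 in corolla, while SWEET4 and the palmitoyl-ACP thioesterase are high on day 1 in corolla alone.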

How the data were processed

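Poly-A RNA was sequenced with a kit not stated to keep strand and assembled de novo, per the labels, and the submitters' processing notes list Bowtie and RSEM, without versions. The petal and corolla tables of all genes hold FPKM values, rounded to 2 decimals by the authors as deposited, with no counts. Read counts, per the file headers, are given in the deposited tables of the genes the authors called, and they carry the descriptions and GO terms. The deposited FDR, an adjusted p-value, and log2 fold change, per the file headers, come from the authors' own comparison. The sources used here do not name its tool. The authors' deposited table of called petal genes holds 376 genes higher and 677 lower on day 7, all with an FDR below 0.01.

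The 4 petal libraries, 2 a day, were fitted in R 4.3.3 with limma 3.58.1, using log2(FPKM + 1) values, an intensity trend of the prior variance and Benjamini-Hochberg adjustment at 0.05, for genes with at least 1 FPKM in 2 or more libraries. The difference between tissues was the interaction term over all 8 libraries. The fitting code was checked on simulated data. edgeR 4.0.16 and DESeq2 1.42.0 were run only on counts of the authors' called genes. Total counts per library are not known; relative depth was the median ratio of counts to FPKM over 584 called genes, and summed counts of called genes ran from 811027 to 1710862. Python 3.11.15, pandas 2.3.3, numpy 2.4.6 and matplotlib 3.10.9 made the tables and plots.

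The 26 gene lists matched words in the descriptions, so they can hold false matches. The text names, by rule, the 15 largest rises and falls among described genes that passed, up to 5 risers and 5 fallers per list, all members of the scent lists, the 10 most abundant genes and the 10 largest differences between tissues. Members and lists were chosen with earlier results of these data known, so no count of a list is independent support for its direction. Not every gene the rule allows is named, and 2 genes outside it were chosen after their values were seen. No assembled sequences were used here.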

Additional observations from a re-analysis of the deposited data

Results flagged for a closer look

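The day effect differed between petal and corolla in 173 genes by the interaction test in limma. The values below are log2 differences, petal day effect minus corolla day effect, for the genes named above, each with an adjusted p-value under 0.05 over all 8 libraries. Of these 21 genes, 14 lost the call without petal day 1 repeat 1, 13 without corolla day 1 repeat 1, 14 without a trend of the prior variance and 7 with a pseudocount of 0.1. No explanation was tested for any of them.

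The difference was positive for palmitoyl-acyl carrier protein thioesterase (c103026.graph_c0) at 4.31, uncharacterized c103316.graph_c5 at 3.32 and the ECERIFERUM 1 match c103187.graph_c0 at 3.20. It was 2.30 for geranylgeranyl diphosphate reductase (c103829.graph_c0), which was at 173 and 167 FPKM on day 1 and 42.7 and 35.2 FPKM on day 7 in corolla and overlapped between days in petal. It was 2.26 for 1-deoxy-D-xylulose-5-phosphate synthase 1 (c107914.graph_c0) and 2.22 for pleiotropic drug resistance protein 2 (c90494.graph_c4), which was at 0.24 and 0.68 and 2.27 and 2.20 FPKM in corolla. For phenylalanine ammonia-lyase 1 (c103612.graph_c0) it was 1.61.

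The value restates the change of 1 tissue for 2 genes that were below the filter in the other, and it shows no difference between day effects there. These were SWEET4 (c54457.graph_c0) at 5.10, from its high day 1 corolla level, and isoleucine N-monooxygenase 1 (c95271.graph_c2), chosen after its values were seen, at 2.73, from its rise in petal. In other genes, above the filter, a low day 1 level in 1 tissue limited the fall there. They include c54411.graph_c0, c71959.graph_c1, c77264.graph_c0 and c109509.graph_c0 in corolla and c103026.graph_c0 in petal. The part of this limit in their differences was not tested.

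The difference was negative for uncharacterized c54411.graph_c0 (-3.99), the trypsin inhibitor c96639.graph_c0 (-3.72), uncharacterized c86033.graph_c1 (-3.47) and fasciclin-like arabinogalactan protein 11 (c93723.graph_c0, -3.44). It was -3.38 for xyloglucan endotransglucosylase/hydrolase 2 (c96460.graph_c3), -3.36 for uncharacterized c109509.graph_c0 and -3.34 for the proline-rich protein c77264.graph_c0. Uncharacterized c71959.graph_c1 had -2.71, 3-ketoacyl-CoA synthase 6 (c98698.graph_c0) -2.70 and the phenylalanine ammonia-lyase gene c93919.graph_c0 -2.18. The putative cell wall protein c101821.graph_c0, at 1599.6 and 1419.6 and 69.8 and 58.5 FPKM in corolla, had -2.34, and aquaporin TIP2-2 (c102489.graph_c0) had -1.92.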

How the results depend on the processing

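For the 2384 petal calls, leaving out a library gave 251 to 4662, no filter on low FPKM 452 (with 7028 genes at an unadjusted p under 0.05) and all 8 libraries in 1 fit 3921. A pseudocount of 0.1 gave 1894, a minimum of 5 FPKM 3190, median-of-ratios scaling 3246, TMM 3385, no trend 1707 and rescaling without the most abundant gene, chosen after seeing the data, 2983. For the 173 differences between tissues the counts were 14 to 215 without 1 library, 99 with no filter, 270 with median-of-ratios scaling, 280 with TMM, 131 with a pseudocount of 0.1 and 16 without a trend. Except for fewer libraries and more tested genes, which are what those settings consist of, the cause was not tested. With the replicate block the counts were 2288 and 166; the labels do not pair the libraries. Deviations of same-numbered repeats correlated, across genes, at -0.01 between the petal days, at 0.33 between petal and corolla on day 1 and at 0.56 on day 7, so repeats of 1 day shared part of their deviation across tissues. With the block the interaction calls of c103612.graph_c0 and c90494.graph_c4 ended (adjusted p = 0.0545 for both), and the petal differences of c54414.graph_c0 (adjusted p = 0.0283) and c55524.graph_c0 (adjusted p = 0.0207) passed, both as risers.

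Of the authors' 1053 called petal genes, 1035 were tested and 938 passed limma with the same sign, against 1053 with edgeR and 1050 with DESeq2 on their counts; these genes had been selected for a change.

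No named gene that passed changed sign. Signs changed for 10 genes that did not pass, with these ranges of the log2 fold change when 1 library was left out: terpene synthase 4 (c101367.graph_c0) -0.027 to 0.52, geranylgeranyl diphosphate reductase (c103829.graph_c0) -0.0016 to 0.40, c106549.graph_c1 -0.70 to 1.16, c106549.graph_c2 -0.76 to 1.18, c110090.graph_c3 -0.45 to 0.021, c110924.graph_c1 -0.44 to 0.14, c54333.graph_c0 -0.32 to 0.27, c73852.graph_c0 -0.36 to 0.40, c93840.graph_c0 -0.070 to 1.55 and caffeoyl-CoA O-methyltransferase (c89143.graph_c0) -0.68 to 0.34, the last passing without day 7 repeat 2 (adjusted p = 0.0278). TMM gave c54333.graph_c0 0.041 and the added rescaling 0.016. Total depth is unknown, so no limit from counting error is given.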
